A study of Arabidopsis thaliana with 7 samples.

Results

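The rosette transcriptome of the wrky53 mutant was compared with that of the wrky18 wrky40 double mutant after infection with the bacterium Pst-DC3000, 1 array against 1 array out of the 7 in the series. The comparison was fixed by genotype and treatment, not by a measured value, and took in 22746 of the 22810 probe sets, all except 64 controls. The RNA on each array came from whole Arabidopsis thaliana rosettes at an age of 14 days. The 2 compared groups were a T-DNA knockout of WRKY53 and a double T-DNA knockout of WRKY18 and WRKY40, both treated with Pst-DC3000. Col-0, the wild type, was measured after Pst-DC3000 and after a MgCl2 mock treatment, and T-DNA knockouts of WRKY18, WRKY40 and WRKY60 were measured after Pst-DC3000. All plants were grown in substrate treated with the insecticide imidacloprid. The time from treatment to harvest, the number of insertion alleles and plants behind each array, and the bacterial load are not given in the sources used here.

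WRKY proteins are plant transcription factors that bind W-box elements in promoters, and many of them are induced by pathogens. WRKY18 and WRKY40 belong to group II-A of the family and are known mainly as repressors of basal defence genes. WRKY53, a group III member, is known as a promoter of leaf senescence and takes part in basal defence. Pst-DC3000 is a virulent strain of Pseudomonas syringae that injects effector proteins which dampen pattern-triggered immunity, the defence started by microbial molecules at the cell surface, and makes coronatine, which mimics jasmonate.

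With 1 array in every group no replicate error or p-value could be had, and a difference between these arrays cannot be told apart from variation between plants or hybridisations. A floor of 22.1 replaced every lower signal before ratios were taken, and ratios that involve the floor are written as at least so many fold. A probe set was counted as changed at 2-fold, and as measured when its mean signal over the wrky53, double mutant and Col-0 Pst arrays reached the floor. RCA, SBPASE and PRK, photosynthetic genes that mark leaves, had signals from 962 to 5865 on the 7 arrays. The root gene EXPA7 and the seed gene AT3G15670 lay below the floor on all of them, and no flower marker had a named probe set. In bulk rosettes, fewer cells of a type and less RNA per cell cannot be told apart. The wrky60 array stood apart from the rest, differing at 2-fold from each other array after Pst in 1916 or more probe sets. It entered the comparison through the floor, the choice of 1 probe set per gene and the alternatives that scale all arrays together.

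WRKY53 itself was examined first. Its signal was 358 in mock-treated Col-0, 107 in Col-0 after Pst, 79.3 on the wrky18 array, 94.6 on wrky40, 141 on wrky60 and 95.5 on the double mutant. On the wrky53 array it was 3.07, below the floor and at least 4.33-fold lower than on the double mutant. WRKY53 was thus near the wild-type level in the double mutant and below the floor in the line labelled as its knockout. WRKY18 and WRKY40 had no probe set with a gene name of its own in the annotation used here. The 2 largest ratios among the probe sets higher on wrky53 nevertheless followed those labels. Probe set 261892_at, which the annotation used here gives no gene, had signals of 11.7 on the wrky40 array and 16.5 on the double mutant and of 230 to 310 on the other 5 arrays. It was at least 13.5-fold higher on wrky53. Probe set 253485_at, also without a gene name here, had signals of 1.83 on the wrky18 array and 20.3 on the double mutant and of 124 to 328 on the other 5 arrays, at least 5.92-fold higher on wrky53. Each of these probe sets was below the floor on the double mutant and on 1 single mutant only.

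Between wrky53 and the double mutant, 615 probe sets (2.7%) differed at least 2-fold. Of these, 446 (1.96%) were lower on wrky53 and 169 (0.743%) were higher. The median ratio was 2.62-fold among the lower probe sets and 2.23-fold among the higher ones. For 78 of the lower and 21 of the higher probe sets the dimmer signal was at the floor. A single named gene was available for 210 genes lower on wrky53 (1.58% of 13286) and 73 genes higher (0.549%), while 234 lower and 96 higher probe sets had no such name. The pair was the most divergent of the 10 pairs of Pst arrays that leave out wrky60. These pairs had from 43 to 615 changed probe sets with a median of 205 and a next highest value of 438, for wrky18 against wrky53. The bulk of the array agreed closely, and 83.4% of measured probe sets lay within 1.5-fold. After the floor, 0 of the 64 control probe sets reached 2-fold. In signals without the floor, the 18 spike-in controls, RNAs added to every hybridisation, were all lower on wrky53, by a median of 1.34-fold and at most 2.29-fold. The 3′ to 5′ signal ratio of GAPDH, a gauge of RNA integrity, was 1.21 on wrky53 and 1.28 on the double mutant, and that of actin was 6.53 and 7.91. That of ubiquitin went the other way, with 2.67 on wrky53 and 2.52 on the double mutant. A second control set covers the same genes. Its 3′ and 5′ signals for GAPDH were 1275 and 1393 on wrky53, and 1367 and 1533 on the double mutant. For actin they were 1592 and 978, and 1662 and 957. For ubiquitin they were 2545 and 1860, and 2960 and 2343. The part of these small shifts in the results was not tested.

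**Figure D1:**
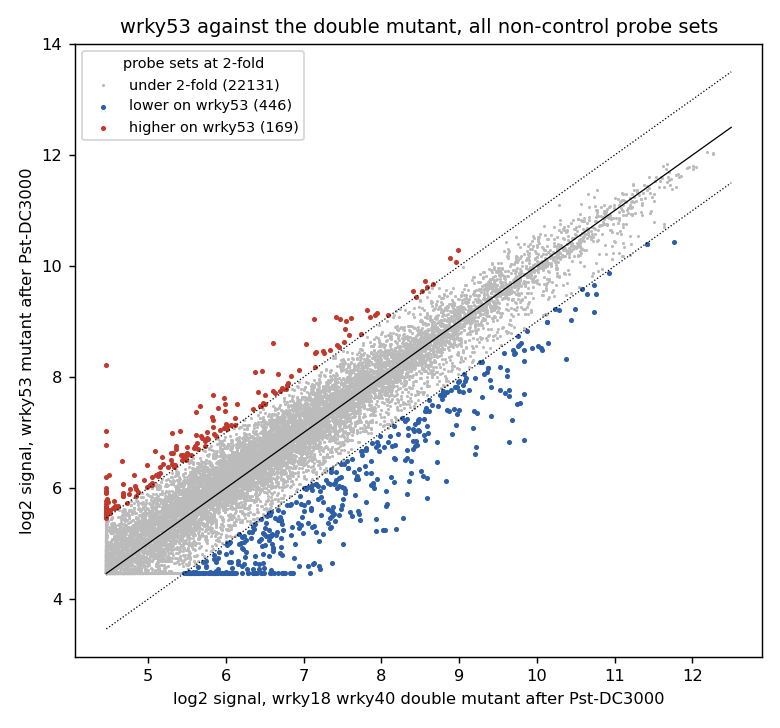
Floored log2 signal of every non-control probe set on the double mutant array (x axis) and the wrky53 array (y axis), with the diagonal of equal signal and dotted lines at 2-fold. The 446 probe sets lower on wrky53 outnumber the 169 higher ones, and the red point highest on the left edge is the probe set at least 13.5-fold higher on wrky53, the largest ratio in either direction.

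The measured genes listed for pattern-triggered immunity were lower on wrky53. Of the 20 genes on the list, only 6 had a probe set with a single named gene, and 5 of these were measured. All 5 were at least 2-fold lower on wrky53, with a median log2 ratio of -1.35. Over all 7117 measured genes 2.94% were lower and 1.03% higher, with a median of 0.07. The list was chosen with earlier results of these arrays known, so this count is a description and not independent evidence of a direction. PUB22, a U-box ubiquitin ligase that restrains pattern-triggered immunity, had a signal of 552 in mock-treated Col-0, 292 in Col-0 after Pst, 364 on wrky18, 284 on wrky40, 224 on wrky60, 88.4 on wrky53 and 422 on the double mutant. The wrky53 array was the lowest of the 7, and the ratio to the double mutant was 4.78-fold. PUB23 and PUB24, its close relatives with the same role, were 2.55-fold and 2.05-fold lower on wrky53, with signals of 134 against 341 and 46.0 against 94.6. PUB24 came under 2-fold, at log2 ratios of -0.64 under a floor at the 60th percentile and -0.78 when the floor was added to signals, and each left 4 of the list lower. WRKY22, a factor induced by bacterial flagellin, was 2.61-fold lower, with 57.3 on wrky53 against 150 on the double mutant and 146 in Col-0 after Pst. BIK1, a cytoplasmic kinase that relays signals from immune receptors, was 2.38-fold lower, with 149 against 355 and 234 in Col-0. EFR, the receptor for bacterial elongation factor Tu, was not measured by the rule, with 12.6 on wrky53 and 30.5 on the double mutant, at least 1.38-fold lower. For all 5 measured members the mock signal exceeded that of Col-0 after Pst.

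Among the genes lower on wrky53, several receptor kinases formed a block on chromosome 1. No gene matched the family term for receptor-like kinases, so no share of that family is given. AT1G51790, AT1G51820, AT1G51850 and AT1G51890, leucine-rich-repeat receptor kinases, were 3.49-fold, 2.81-fold, 3.79-fold and 4.35-fold lower on wrky53. AT1G51890 had signals of 335 in mock, 139 in Col-0 after Pst, 124 on wrky18, 114 on wrky40, 84.0 on wrky60, 45.4 on wrky53 and 197 on the double mutant. AT1G51850 had 748 in mock, 293 in Col-0 after Pst, 245 on wrky18, 266 on wrky40, 177 on wrky60, 73.8 on wrky53 and 280 on the double mutant. In both genes wrky53 was the dimmest array and mock the brightest. AT4G08850, another leucine-rich-repeat receptor kinase, was 3.01-fold lower, with 260 on wrky53, 499 in Col-0 after Pst, 782 on the double mutant and 1382 in mock. B120, a lectin-type receptor kinase, was 3.50-fold lower, with 36.6 on wrky53 and 128 on the double mutant.

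Genes for secreted enzymes, named for their ratios, families or neighbours, included several peroxidases. AT5G64100, a peroxidase, had signals of 179 in mock, 110 in Col-0 after Pst, 132 on wrky18, 65.6 on wrky40, 33.3 on wrky60, 24.2 on wrky53 and 147 on the double mutant, and was 6.08-fold lower on wrky53. The peroxidases AT5G39580, Prx37 and AT5G64120 were 4.17-fold, 4.34-fold and 2.03-fold lower. Only 2 measured peroxidases, Prx37 and AT5G64120, were matched to the family by symbol or synonym, so no share of the family is given. AT5G64120 was among the bright genes, with 1343 on wrky53, 2625 in Col-0 after Pst, 2725 on the double mutant and 3767 in mock. AT4G12500 and AT4G12490, neighbouring genes for lipid-transfer-type proteins, were 5.48-fold and 4.76-fold lower. AT4G12500 had 870 in mock, 645 in Col-0 after Pst, 848 on wrky18, 531 on wrky40, 204 on wrky60, 150 on wrky53 and 822 on the double mutant. ATPMEPCRB, a pectin methylesterase, was 3.45-fold lower, with 58.8 on wrky53 against 203 on the double mutant, 210 in Col-0 and 434 in mock. Of the 4 measured pectin methylesterases matched by symbol or synonym, it alone was at least 2-fold lower. Of these 4, 2 were below and 2 above a log2 ratio of 0. Family members without such a symbol or synonym could not be counted. The aspartyl protease genes AT5G48430 and AT3G51330 were 4.39-fold and 4.36-fold lower. AT4G01700 and CHI, both chitinases, which cut a fungal wall polymer, were 3.41-fold and at least 2.80-fold lower.

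A ratio can be made of a step from Col-0 down to wrky53 and a step from Col-0 up to the double mutant, and the Col-0 Pst array was used to separate them. Between Col-0 after Pst and wrky53, 113 probe sets (0.497%) were at least 2-fold lower on wrky53. Between Col-0 and the double mutant, 216 (0.95%) were at least 2-fold higher on the double mutant. The opposite steps were rarer, with 36 probe sets (0.158%) higher on wrky53 and 32 (0.141%) lower on the double mutant. Of the 446 probe sets lower on wrky53 than on the double mutant, 85 had a 2-fold step only on the wrky53 side, 161 only on the double mutant side, 12 on both and 188 on neither. For named genes the counts were 55, 69, 5 and 81, where 0.504% of all named genes were lower on wrky53 than in Col-0 and 0.715% higher on the double mutant. The 169 higher probe sets divided into 27, 17, 0 and 125 and the 73 higher genes into 12, 5, 0 and 56, where 0.128% of named genes were higher on wrky53 than in Col-0 and 0.0828% lower on the double mutant. These classes follow from the same 3 arrays as the ratio and are descriptions.

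The wrky53 side held the genes with the widest loss against the wild type. AT2G44370 and AT2G44380, neighbouring genes for DC1-domain proteins, were 6.79-fold and 6.34-fold lower on wrky53 than on the double mutant. AT2G44370 had signals of 703 in mock, 235 in Col-0 after Pst, 226 on wrky18, 258 on wrky40, 143 on wrky60, 56.6 on wrky53 and 384 on the double mutant. AT2G17740, also a DC1-domain protein, had 1797 in mock, 572 in Col-0 after Pst, 713 on wrky18, 682 on wrky40, 503 on wrky60, 184 on wrky53 and 859 on the double mutant. In these genes the order ran from mock through the double mutant and Col-0 down to wrky53. AT1G72060, a protease-inhibitor-like gene, was nearly equal in Col-0 and the double mutant, with 591 and 597, and stood at 107 on wrky53, 572 on wrky18, 512 on wrky40, 417 on wrky60 and 1333 in mock. AT1G26420, a berberine-bridge-type oxidase, was 5.62-fold lower on wrky53, with 371 in mock, 143 in Col-0 after Pst, 43.5 on wrky53 and 244 on the double mutant. Mock was the brightest of the mock, Col-0, wrky53 and double mutant arrays in 49 of the 55 named genes on this side. The dimmest was wrky53 in all 55, but the class itself puts it below Col-0 and the double mutant, so only mock could be dimmer.

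The double mutant side held genes that were highest in the double mutant. AT1G26380, a berberine-bridge-type oxidase of indolic cyanogenic metabolism, had the largest ratio among named genes. Its signals were 117 in mock, 28.5 in Col-0 after Pst, 70.0 on wrky18, 76.0 on wrky40, 21.4 on wrky60, 38.3 on wrky53 and 291 on the double mutant, a 7.61-fold difference. wrky53 and Col-0 lay close together, and the double mutant exceeded both single mutants and the mock. AT4G16260, a beta-1,3-glucanase-type glycosyl hydrolase, had 38.8 in mock, 153 in Col-0 after Pst, 327 on wrky18, 296 on wrky40, 97.2 on wrky60, 115 on wrky53 and 801 on the double mutant, and was 6.99-fold lower on wrky53. Prx37 had 152 in mock, 221 in Col-0 after Pst, 298 on wrky18, 323 on wrky40, 242 on wrky60, 157 on wrky53 and 682 on the double mutant. In AT4G16260 and Prx37 the wrky18 and wrky40 arrays lay between Col-0 and the double mutant. AT4G08780, the peroxidase gene beside Prx37, was at least 4.85-fold lower on wrky53.

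WRKY6, a factor tied to senescence and defence, also changed on the double mutant side. Its signal was 189 in mock, 110 in Col-0 after Pst, 130 on wrky18, 149 on wrky40, 70.2 on wrky60, 64.0 on wrky53 and 240 on the double mutant, 3.75-fold lower on wrky53. UGT73B4 and UGT73B5, neighbouring UDP-glycosyltransferases, were at least 3.75-fold and 3.33-fold lower. PDF1.2b, a plant defensin of the ethylene and jasmonate pathways, had 32.8 in mock, 205 in Col-0 after Pst, 344 on wrky18, 227 on wrky40, 216 on wrky60, 167 on wrky53 and 583 on the double mutant, 3.49-fold lower on wrky53. PDF1.2, its close paralogue, was 1.99-fold lower, with 154 against 305. Near-identical defensin transcripts can share probes, so these values are uncertain for each gene alone. The acyltransferase AT5G42830 was 4.91-fold lower and the TIR-domain gene AT1G57630 5.63-fold lower. Among the 69 named genes on this side the double mutant was the brightest of the mock, Col-0, wrky53 and double mutant arrays in 61. The class itself puts the double mutant above Col-0 and wrky53, so only mock could be brighter.

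On the lower side, 5 named genes had a 2-fold step on both sides. The largest was AT2G36690, a 2-oxoglutarate-dependent oxygenase, with 218 in mock, 98.4 in Col-0 after Pst, 107 on wrky18, 144 on wrky40, 118 on wrky60, 44.1 on wrky53 and 312 on the double mutant. It was 7.08-fold lower on wrky53, with Col-0 and the 3 single mutants between. CYP71B23, a cytochrome P450, was 5.99-fold lower, with 687 in mock, 272 in Col-0 after Pst, 98.5 on wrky53 and 590 on the double mutant. Its neighbours CYP71B24 and CYP71B22 were at least 5.15-fold and 2.22-fold lower. AT1G65500 was 6.49-fold, AT1G61370 at least 4.92-fold and AT1G08050 4.44-fold lower.

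**Figure D2:**
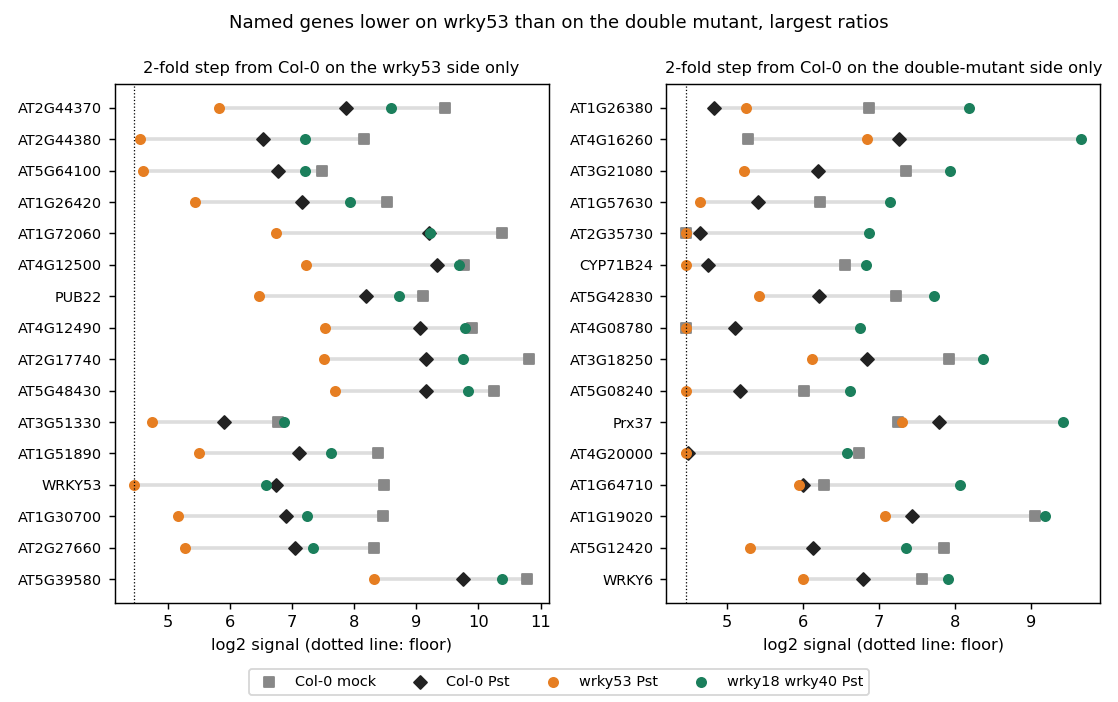
Floored log2 signal (x axis) of the 16 named genes with the largest ratios in each class, on 4 arrays, with the floor as a dotted line and a grey bar over the range. On the left, where the 2-fold step from Col-0 lies on the wrky53 side, wrky53 is the dimmest array in all 16 genes and mock the brightest in 15, and on the right the double mutant is the brightest in 14. By the classes, only mock could be dimmer than wrky53 on the left or brighter than the double mutant on the right.

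The place of Col-0 after Pst was then expressed on a scale with 0 at the double mutant and 1 at wrky53, on log2 signal. Over the probe sets lower on wrky53 the median place was 0.60, and Col-0 lay strictly between the 2 mutants in 369 of 446 (82.7%). It was nearer wrky53 in 215, nearer the double mutant in 154, at or beyond wrky53 in 64 and at or beyond the double mutant in 13. Over the higher probe sets the median was 0.53, with Col-0 between in 155 of 169 (91.7%). The changed probe sets are extremes of these 2 arrays, so any further array falls between them more often by construction. The single mutants were also mostly between, wrky18 in 85.1% and wrky40 in 91.9% of 444 measured lower probe sets. Their median places, 0.47 and 0.45 for the lower and 0.26 and 0.33 for the higher probe sets, were nearer the double mutant than those of Col-0. Mock-treated Col-0 had median places of 0.13 and 0.11 and lay between in 45.0% and 42.6%. Among 12788 measured probe sets under 2-fold, Col-0 after Pst lay between in 46.2%, wrky18 in 31.5% and wrky40 in 42.3%. The median places of these arrays there were 0.61, 0.36 and 0.47, and that of mock was 0.42. Single mutants placed nearer the double mutant than Col-0 was are thus not particular to the changed probe sets.

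**Figure D3:**
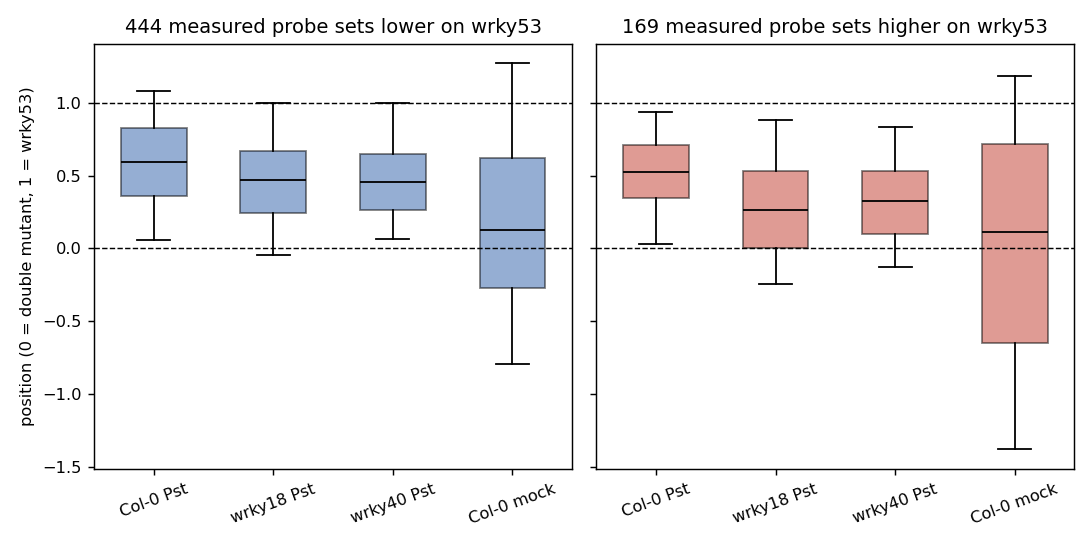
Place of 4 other arrays between the double mutant (0) and wrky53 (1) on log2 signal (y axis), over measured probe sets lower (left) and higher (right) on wrky53; boxes give the quartiles, the line the median and whiskers the 5th to 95th percentile. Col-0 after Pst has medians of 0.60 and 0.53, the single mutants lie lower, and mock-treated Col-0 spreads from beyond one mutant to beyond the other.

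The changed probe sets were also set against mock-treated Col-0. Of the 446 lower probe sets, 262 were at least 2-fold below mock on wrky53 and 28 on the double mutant. On the double mutant 101 were at least 2-fold above mock and 317 were within 2-fold of it. With the 2-fold step on the wrky53 side, 80 of 85 were below mock on wrky53 and 59 of 85 stayed within 2-fold of mock on the double mutant. With the step on the double mutant side, 77 of 161 were above mock on the double mutant. Of the 169 higher probe sets, 90 were at least 2-fold above mock on wrky53 and 36 on the double mutant. The probe sets were chosen by the ratio of the 2 mutants, which by itself favours such departures from mock. The same counts were not taken over all probe sets, so these are descriptions and not a result about either mutant.

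The response of Col-0 to Pst shares no array with the ratio of wrky53 to the double mutant. The contrasts were set side by side, an alternative chosen after seeing the data. The measured rule does share arrays with both. A probe set below the floor in Col-0 after Pst could count only where a mutant was above it. AT5G12930 had 16.7 in Col-0 after Pst and 13.0 on wrky53, and passed through 45.8 on the double mutant. AT1G26410, with a log2 ratio of -0.78, did not pass. The part of this rule in the shares below was not tested. Of 249 measured probe sets (1.85%) at least 2-fold lower after Pst in Col-0, 132 (53.0%) were lower on wrky53 than on the double mutant, against 3.31% of all 13428 measured probe sets. Only 1 of the 249 was higher. Their median log2 ratio was -1.05, against 0.06 over all measured probe sets. Of 317 measured probe sets (2.36%) at least 2-fold higher after Pst, 56 (17.7%) were higher on wrky53, against 1.26% of all, and 14 (4.42%) were lower, with a median log2 ratio of 0.39. For named genes, 72 of 129 lowered by Pst (1.81% of measured genes) were lower on wrky53 and 0 higher, and 21 of 137 raised by Pst (1.92%) were higher and 3 lower. Genes that Pst lowered in Col-0 thus often had lower signals on wrky53 than on the double mutant, and genes that it raised were more often higher than lower. Across measured probe sets the ratio and the Col-0 response correlated with Pearson r of 0.35 and Spearman rho of 0.25 (n = 13428 probe sets of 4 arrays, which are not independent replicates).

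**Figure D4:**
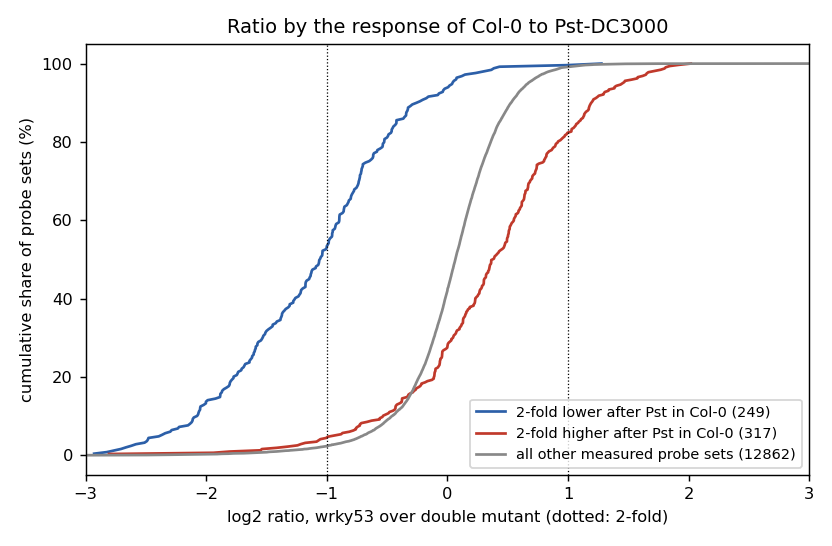
Cumulative share of measured probe sets (y axis, percent) by log2 ratio of wrky53 over the double mutant (x axis, dotted lines at 2-fold), for probe sets at least 2-fold lower after Pst in Col-0 (249), at least 2-fold higher (317) and all others. The curve of the Pst-lowered probe sets crosses the left 2-fold line at 53.0%, and that of the Pst-raised probe sets leaves 17.7% beyond the right one.

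The same comparison was made for the 2 step classes with the mean of the wrky18 and wrky40 arrays over mock. This avoids the Col-0 Pst array that defined the classes, except in the measured rule. Probe sets with the wrky53 step were at least 2-fold lower after Pst in those single mutants in 44 of 85 (51.8%). With the double mutant step it was 25 of 159 measured (15.7%), with neither step 35 of 188 (18.6%), and over all measured probe sets 1.91%. The median log2 response was -1.02, -0.13 and -0.47 in that order.

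Among the 12 genes higher on wrky53 with the 2-fold step on the wrky53 side, Col-0 was brighter after Pst than after mock in 9. The same held for 71.2% of all 73 genes higher on wrky53 and for 52.0% of all measured genes. AT3G28270 had 28.6 in mock, 113 in Col-0 after Pst, 83.8 on wrky18, 81.4 on wrky40, 223 on wrky60, 394 on wrky53 and 97.1 on the double mutant, 4.05-fold higher on wrky53. TBL26, of a family that acetylates cell wall polysaccharides, had 22.9 in mock, 219 in Col-0 after Pst, 282 on wrky18, 170 on wrky40, 165 on wrky60, 531 on wrky53 and 140 on the double mutant, 3.79-fold higher. In both genes wrky53 was the brightest of the 7 arrays and mock the dimmest. AT2G22200, an ERF-type transcription factor, was 3.41-fold higher, with 167 against 48.9 and 80.3 in Col-0 after Pst. AT1G54020, a GDSL-type lipase, was 3.34-fold higher, with 75.3 against 22.5. BSMT1, which methylates salicylate and benzoate, had 1.09 in mock, 101 in Col-0 after Pst, 71.2 on wrky18, 74.3 on wrky40, 224 on wrky60, 210 on wrky53 and 99.3 on the double mutant, 2.12-fold higher on wrky53. For BSMT1 the double mutant was level with Col-0, and wrky60, the array that stood apart, was as high as wrky53.

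Most higher genes, 56 of 73, had no 2-fold step from Col-0 on either side. AT3G21670, a nitrate transporter of the NRT1 family, had 48.8 in mock, 279 in Col-0 after Pst, 379 on wrky18, 215 on wrky40, 473 on wrky60, 541 on wrky53 and 171 on the double mutant, 3.17-fold higher on wrky53. AT1G52000, a jacalin-type lectin, had 45.4 in mock, 279 in Col-0 after Pst, 280 on wrky18, 125 on wrky40, 266 on wrky60, 518 on wrky53 and 187 on the double mutant, 2.77-fold higher. AT2G43535 and AT2G43530, neighbouring genes for small knottin-type defence peptides, were 2.73-fold and 2.39-fold higher. AT1G62660, a vacuolar invertase, was 2.35-fold higher, with 544 against 232, and BCAT4, the first step of methionine chain elongation for aliphatic glucosinolates, was 2.05-fold higher, with 790 against 385. AT2G31790, a glycosyltransferase of the same pathway, was 1.70-fold higher, with 322 against 189.

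A few genes for chloroplast proteins, picked after their values were seen, were also higher on wrky53. CaS, a calcium-sensing thylakoid protein, had 354 on wrky53, 153 on the double mutant, 289 in Col-0 after Pst and 353 in mock, 2.32-fold higher on wrky53. Cpn60beta4, a chaperonin subunit, was 2.38-fold, CRR42, an assembly factor of the NDH complex, 2.22-fold and CHLI2, a magnesium chelatase subunit of chlorophyll synthesis, 2.14-fold higher. With the floor added to signals, Cpn60beta4, CRR42 and CHLI2 came under 2-fold, at log2 ratios of 0.98, 0.88 and 0.89, and a 60th-percentile floor put CRR42 at 0.84. In CaS and CRR42, wrky53 was close to mock and the double mutant was the lowest array. The 5 measured genes listed for photosynthesis and the Calvin cycle held 0 changed genes, with a median log2 ratio of 0.43 against 0.07 over all measured genes. RCA and PSAE-1 were 1.03-fold lower and 1.05-fold higher on wrky53, and PORB, SBPASE and PRK were 1.34-fold, 1.39-fold and 1.45-fold higher.

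**Figure D5:**
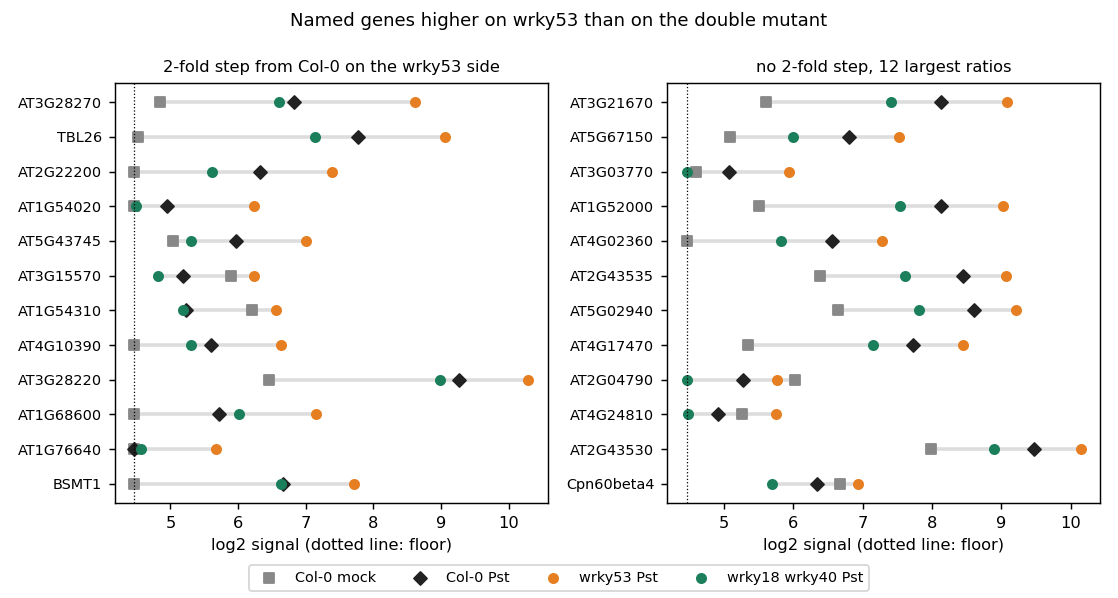
Floored log2 signal (x axis) of named genes higher on wrky53, on 4 arrays, with the floor as a dotted line: all 12 with a 2-fold step from Col-0 on the wrky53 side (left) and the 12 largest with no 2-fold step (right). wrky53 is the brightest of the 4 arrays in all 12 genes on the left and in 11 on the right. By the choice of these genes, only mock could be brighter than wrky53.

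Hormone genes varied by list. Of 33 listed jasmonate genes only 5 had a probe set with a single named gene, and all 5 were measured. Among them, JRG21 and JMT, both raised by Pst in Col-0, were nearly equal in the 2 mutants, with 1079 against 1210 and 223 against 220. NAI1 was 1.59-fold higher on wrky53, PYK10 had 783 against 654, and BSMT1 alone passed 2-fold. Only 3 of 15 listed ethylene genes had such a probe set, and all 3 were measured. These 3, PDF1.2b, PDF1.2 and EIN3, were all lower, with 1 past 2-fold and a median log2 ratio of -0.99. PDF1.2b and PDF1.2 can share probes, so their values may not be separate. EIN3, a master factor of ethylene signalling, was 1.08-fold lower. Of 24 genes listed for salicylic acid and pathogenesis-related proteins, only 3 had such a probe set. The 2 measured ones were BSMT1 and SAG101. SAG101, a partner of the immune regulator EDS1, was 1.47-fold lower, with 24.5 against 36.1. Of 3 methionine sulfoxide reductases, MSRB6 was 2.28-fold higher, with 280 against 122, MSRB5 had 84.3 against 76.7 and MSRB9 was 1.45-fold lower, so the members did not share a direction. Among the 5 measured reference genes the median log2 ratio was 0.09, with 0 changed.

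Gene families were read through symbols and synonyms, and only members with a single named gene could be placed. Their counts stand beside 2.94% lower and 1.03% higher over all measured genes. Of 6 measured WRKY genes, WRKY53, WRKY6 and WRKY22 were lower on wrky53, of which WRKY53 is the gene disrupted in that line. WRKY47 was 1.66-fold lower, with 72.0 against 120, and ZAP1 and WRKY20 were 1.09-fold and 1.22-fold higher. Of 13 measured cytochromes P450, 3 were lower, all of the CYP71B cluster described above, adjacent close copies whose probes may share transcripts. Of 30 measured UDP-glycosyltransferases, 4 were lower, UGT73B4, UGT73B5, UGT76B1 and UGT71C2, and the family median was 0.04. UGT76B1, which conjugates an immune-active isoleucine derivative, had 178 on wrky53 against 423 on the double mutant and 216 in Col-0 after Pst. The 6 measured glutathione transferases held 0 changed genes, all higher on wrky53 with a median log2 ratio of 0.64. The 12 measured expansin and xyloglucan enzyme genes and the 4 jacalin genes that carry such a symbol also held 0 changed genes. Of 5 measured genes matched as calcium-binding EF-hand proteins, 4 were below and 1 above a log2 ratio of 0. CML42, a calmodulin-like calcium sensor, was 2.81-fold lower. AT1G76640, of the same family, was 2.15-fold higher with dim signals of 51.1 and 23.8, and fell to a log2 ratio of 0 at the 60th-percentile floor.

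Some changed genes were neighbours. Of 209 lower named genes with a place among the protein-coding loci, 37 had another lower gene within 5 protein-coding loci on either side, in 15 groups, and 4.05% of the 913 named genes in those windows were lower, against 1.70% of all named genes with a place. The largest group held 5 genes, the receptor kinase block with AT1G51920. Of 73 higher genes, 8 lay in 4 such groups, and 2.35% of 341 named neighbours were higher, against 0.594%. Several of the groups hold genes of 1 family, such as CYP71B22 to CYP71B24, the 2 DC1-domain genes and Prx37 with AT4G08780. The receptor kinases of the largest group are also of 1 family. In such groups, probes may share transcripts of close copies. Where a changed gene had a second named probe set, AT1G18390 and AT5G44820 were lower in both, AT5G04310 was lower by a log2 ratio of -0.90 in the other, and the other probe sets of GAT1_2.1 and AT1G77890 lay below the floor on both arrays.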

How the data were processed

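RNA from entire rosettes was measured on 1-colour Affymetrix ATH1 arrays, 1 per group. The authors deposited linear signal intensities, which MAS5 produced per the submitters' processing notes; neither its version nor scan dates are given in the sources used here. The 2% trimmed mean was 100.01 on each of the 7 arrays, so intensities were taken unchanged. Precision is limited by 1 array per group and by background.

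Groups were read from source names (genotype) and sample titles (treatment). Of 22746 non-control probe sets, the platform annotation gave 13513 a single gene, 503 several and 8730 none; 13436 matched the TAIR10.1 gene table, which served for names and neighbouring loci only. The floor, 22.1, averages the 40th percentile of signal of the 7 arrays. That percentile was highest on the wrky60 array, 31.3 against 20.1 to 21.6 elsewhere. Gene counts use the brightest probe set of each gene on average over arrays (13286 genes, 7117 of them measured). Named genes were WRKY53, the 20 highest and 20 lowest ratios, up to 8 genes per class of Col-0 position, up to 6 members per list or family, and changed neighbours; genes of no known function could be left out. A few pairs and classes were picked after their values were seen: CaS, Cpn60beta4, CRR42, CHLI2, AT1G62660 and the 2 unnamed probe sets. The comparison, lists and families were chosen with earlier results of these data known.

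No gene matched the family terms for receptor-like kinases, NLR proteins, lipid transfer proteins, MYB, ERF and several others, because the gene table holds no descriptions, and the DC1 term matched unrelated synonyms and was not used. A planned search of promoters for W-boxes was not run, since no sequences were used here. Alternatives were a floor at the 25th or at the 60th percentile, adding the floor to signals before log2, quantile normalization, median centring, cyclic loess (3 iterations, log2 of signal plus 1), 1 probe set per gene, a 3-fold threshold and a floor without wrky60. A minimum of 4 times the floor on the brighter array, the Col-0 response and the single mutant response were added after seeing the data. The functions were tested on simulated data. Software was limma 3.58.1 in R 4.3.3, and pandas 2.3.3, numpy 2.4.6 and matplotlib 3.10.9 in Python 3.11.15.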

Additional observations from a re-analysis of the deposited data

How the results depend on the processing

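No paired analysis was possible because each group has 1 array and the replicate number 1, and leaving out an array of the comparison leaves no ratio. Of 10 alternatives, 7 change the ratio of a gene, and under these 233 of the 283 changed named genes kept their sign. The minimum of 4 times the floor kept 188 of the 283. Under the 7, the remaining 50 fell to a ratio of 0 at the 60th-percentile floor of 60.6, which exceeds both of their signals, and 0 reversed. With that floor 86 of 210 lower and 43 of 73 higher genes came under 2-fold, among them WRKY53 (-0.66), CYP71B24 (-0.91), UGT73B4 (-0.45), UGT73B5 (-0.46), AT4G08780 (-0.82), AT3G51330 (-0.95), AT1G51820 (-0.72), AT1G61370 (-0.84), CHI (-0.03) and AT1G54020 (0.31), and with log2 of signal plus the floor 64 and 51, among them BSMT1 (0.94) and BCAT4 (just under 1). Quantile normalization took 0 and 14 genes, cyclic loess 2 and 12 (AT5G64120 at -0.94 and BSMT1 at 0.99 among them), and median centring 1 and 8 under 2-fold. The share of changed probe sets that were lower on wrky53 was 72.5% as deposited, 76.8% after quantile normalization, 78.9% after cyclic loess and 76.2% after median centring.

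The counts in the following order are all lower, lower with the wrky53 step and lower with the double mutant step, then the same 3 for higher probe sets, with only values that moved beyond 1.5 times given. At the 25th-percentile floor of 8.27, 672 were lower, and 359, 72 and 76 were higher. At the 60th percentile they were 262, 48 and 82, and 80, 15 and 6. With log2 of signal plus the floor, 53 and 104 had the lower steps, and 63, 11 and 6 were higher. With 1 probe set per named gene they were 210, 55 and 69, and 73, 12 and 5. At 3-fold they were 155, 21 and 44, and 17, 2 and 3. With the brighter array at 4 times the floor or more, 102 had the lower double mutant step, 107 were higher and 11 had the higher double mutant step. Lower probe sets outnumbered higher ones in all of these.

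Col-0 lay between the mutants in 85.8% of higher probe sets at the 25th-percentile floor, and in 86.6%, 86.5% and 88.5% of lower ones with log2 of signal plus the floor, at 3-fold and at 4 times the floor. At 3-fold its median place among higher probe sets was 0.43, the share of Pst-raised probe sets higher on wrky53 was 7.5%, and 1 member of the pattern-triggered immunity list was lower, where the other alternatives gave 4 to 6. The median of that list was -1.14 with log2 of signal plus the floor. At 4 times the floor, 68.3% of Pst-lowered probe sets were lower on wrky53. For the moves at a changed floor, threshold or minimum, the number of probe sets that can pass changes by construction. Dim genes are limited by signal over background.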

Other observations

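YLS5, a gene named for expression in yellowing leaves, had 524 in Col-0 after Pst, 550 in mock, 361 on wrky53 and 1075 on the double mutant, 2.98-fold lower on wrky53. STZ, a zinc-finger repressor of stress responses, had 450 in Col-0 after Pst, 341 on wrky53 and 834 on the double mutant, 2.44-fold lower. QQS, an Arabidopsis-specific gene that influences starch content, had 76.2 on the double mutant, 150 on the wrky40 array and 27.0 or less on the other 5 arrays.

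The probe set with the largest ratio among those lower on wrky53, 247949_at, has no gene name in the annotation used here. Its signal was 440 in mock, 235 in Col-0 after Pst, 314 on wrky18, 353 on wrky40, 253 on wrky60, 116 on wrky53 and 916 on the double mutant, a 7.87-fold difference.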
